A study of Mus musculus with 12 samples.

Results

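The genes of the epidermal growth factor (EGF) receptor family and its ligands were followed in a mouse kidney cell line, 10 in all, chosen by their gene symbols from the 48034 genes of the deposited expression table. The 10 members were 6 ligand genes (Egf, Areg, Ereg, Hbegf, Tgfa and Btc), 3 receptor genes (Egfr, Erbb2 and Erbb3) and Errfi1, which encodes an inhibitor that binds the active receptor kinases. The ligands are made as membrane-bound precursors that metalloproteinases cut free. A bound ligand pairs the receptors, and the paired kinases signal through the Ras-MAPK and PI3K-AKT cascades. ERBB2 binds no ligand itself and acts as a partner, whereas ERBB3 binds neuregulins, has little kinase activity and couples strongly to PI3K. In the kidney EGF is made by the distal tubule, and receptor signalling there bears on epithelial growth, repair and magnesium and sodium transport.

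The cells were IMCD3, an established line from mouse inner medullary collecting duct, here the subclone 53a, which carries a mifepristone-inducible, dominant-negative form of a tubule transcription factor. Poly(A) RNA was sequenced in 12 libraries in 4 groups of 3, lettered A to C: mifepristone plus NaCl, vehicle plus NaCl, mifepristone, and vehicle, with 100 mM NaCl added in the NaCl groups. All groups were the same subclone in low-glucose medium with serum, and no cells without the inducible mutant were included, so an effect of mifepristone itself and an effect of the mutant cannot be told apart. Whether the 3 libraries of each group were separate cultures is not stated in the labels, so p-values reflect only how far these libraries differ, and that spread may be technical. Levels are the authors' FPKM (fragments per kilobase of transcript and 1000000 reads).

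The libraries held 41940955 to 49270776 reads, recovered as whole reads from the FPKM values, so a count of 3 reads stood for 0.061 to 0.072 CPM (counts per 1000000 reads). Of 6 markers of simple epithelium all 6 reached FPKM 1, but of 10 principal-cell markers of the collecting duct only 2 did, and the vasopressin receptor gene Avpr2 had at most 3 reads in any library. The principal-cell markers summed to 11 to 12.4 FPKM with mifepristone plus NaCl, 1.38 to 1.54 with vehicle plus NaCl, 10.4 to 11.4 with mifepristone and 2.46 to 2.66 with vehicle, and 73.2% of that sum was Hsd11b2. Of 6 macrophage and leukocyte markers 3 reached FPKM 1, with sums of 15.8 to 17 FPKM with mifepristone plus NaCl, 48.5 to 51.9 with vehicle plus NaCl, 13.2 to 13.7 with mifepristone and 36.6 to 37.6 with vehicle. Csf1r made up 47.6% of that sum. The part of these marker genes in the changes given next was not tested. In RNA from whole cultures, fewer cells expressing a gene and less RNA per cell cannot be told apart.

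Of the members, 6 (Egfr, Erbb2, Erbb3, Errfi1, Hbegf and Tgfa) reached FPKM 1 in at least 3 libraries and were tested with limma on log2(FPKM + 0.5) over 14044 genes, with a call at a Benjamini-Hochberg adjusted p under 0.05. Fold changes of this fit are on the log2(FPKM + 0.5) scale, which understates the change of low genes. The 4 others lay below that filter. Egf, Areg and Btc were tested on recovered reads with limma's voom, over 18349 genes with at least 10 reads in at least 3 libraries. This alternative was chosen after seeing the data. Ereg had too few reads for either fit. The comparisons were mifepristone against vehicle with and without NaCl and NaCl against none in mifepristone and vehicle cells, with a further test of the interaction (the change with mifepristone in NaCl minus that without NaCl). The comparisons share libraries, so they are not independent of each other.

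The authors' tables mark genes with a nearby ChIP peak, and Egfr, Erbb2, Erbb3, Errfi1 and Tgfa carried the mark, which is 5 of the 6 tested members; 28.4% of all 14044 tested genes carried it. The other 5 members did not. The tables give neither the position of the peak nor, in their headers, the protein precipitated. The 250 bases before the annotated start of each marked gene in the RefSeq promoter table (GRCm38.p6) are shown, for Errfi1 at the first of 2 listed starts. They were chosen because they lie next to genes with that mark. Erbb3 and Ereg were not matched in the table. Windows on the chromosome of Hbegf were left out of the matching, so none is given for Hbegf. Capitals mark matches, on either strand, to 4 motifs: AP-1 (TGANTCA), the CRE core (TGACG), the homeodomain motif GTTAAT and the NFAT5 core (TGGAAA).
Egfr, chr11:16751953-16752202, plus strand: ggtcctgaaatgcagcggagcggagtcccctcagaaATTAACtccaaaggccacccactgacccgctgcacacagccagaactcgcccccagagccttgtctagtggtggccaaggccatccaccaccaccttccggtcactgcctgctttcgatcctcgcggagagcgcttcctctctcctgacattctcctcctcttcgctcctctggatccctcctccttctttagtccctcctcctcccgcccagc
Erbb2, chr11:98412234-98412483, plus strand: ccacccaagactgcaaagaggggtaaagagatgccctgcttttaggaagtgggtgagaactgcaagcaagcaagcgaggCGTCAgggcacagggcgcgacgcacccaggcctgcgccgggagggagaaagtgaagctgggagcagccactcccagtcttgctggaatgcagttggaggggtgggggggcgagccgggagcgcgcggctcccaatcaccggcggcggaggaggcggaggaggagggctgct
Errfi1, chr4:150853546-150853795, plus strand: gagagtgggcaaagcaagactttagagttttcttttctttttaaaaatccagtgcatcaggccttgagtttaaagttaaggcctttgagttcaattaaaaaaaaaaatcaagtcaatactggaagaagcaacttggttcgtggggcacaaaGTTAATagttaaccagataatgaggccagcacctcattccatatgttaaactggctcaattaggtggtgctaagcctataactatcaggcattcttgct
Tgfa, chr6:86194972-86195221, plus strand: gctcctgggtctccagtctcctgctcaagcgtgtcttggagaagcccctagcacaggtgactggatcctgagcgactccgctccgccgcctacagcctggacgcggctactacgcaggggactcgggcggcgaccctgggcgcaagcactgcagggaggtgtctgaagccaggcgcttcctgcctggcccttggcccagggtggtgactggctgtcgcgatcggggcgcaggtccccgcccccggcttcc
The Egfr window held GTTAAT on the opposite strand at position -214 from the start, and the Errfi1 window held it on the coding strand at position -99. GTTAAT occurred in 7.1% of 32851 promoter windows. This share and those below cover whole windows of the promoter table, which run past the 250 bases shown. The Erbb2 window held TGACG on the opposite strand at position -171, a motif found in 20.8% of windows. The Tgfa window held none of the 4 motifs, and TGANTCA, found in 7.81% of all windows, was in none of the windows matched for the members. Among the unmarked members, the Areg window held TGACG or its complement at positions -61, -58 and -115, the first 2 of which overlap, and GTTAAT at position -239. The Btc window held CGTCA, the complement of TGACG, at position -113, and the window of the second Egf start held TTTCCA, the complement of TGGAAA (21.4% of all windows), at position -192. The second listed Errfi1 start, not shown, held overlapping TGACG and CGTCA letters at positions -51 and -48 and no GTTAAT. These matches are descriptions of letters, not of binding.

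Egfr, which encodes the receptor for EGF, TGF-alpha and amphiregulin (chr11:16752203-16918158, GRCm38, plus strand), had the largest change with mifepristone without NaCl among the 6 members of the FPKM fit and the smallest with NaCl. Its FPKM was 20.8, 21 and 22.7 with mifepristone plus NaCl, 20.9, 22.4 and 23.3 with vehicle plus NaCl, 12.6, 11.7 and 8.74 with mifepristone, and 17.6, 19.5 and 21.2 with vehicle. The 3 mifepristone libraries without NaCl lay below all 9 others, and the other 3 groups overlapped. Without NaCl, Egfr was 1.74-fold lower with mifepristone than with vehicle (log2 fold change -0.80, SE 0.11, limma adjusted p = 0.000102). With NaCl the log2 difference was -0.05 (95% interval -0.30 to 0.21, limma adjusted p = 0.752). In mifepristone cells NaCl raised Egfr 1.93-fold (log2 0.95, SE 0.11, limma adjusted p = 3e-05), and in vehicle cells the log2 difference was 0.19 (95% interval -0.06 to 0.44, limma adjusted p = 0.174). The last difference was 0.122 and not called without vehicle A. It was called when mifepristone library C was left out (0.191, limma adjusted p = 0.029). That library is in neither group compared, so the difference itself did not change. Only the estimate of spread shared by all groups did. The interaction was 0.76 (SE 0.16, limma adjusted p = 0.00467).

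Erbb3 (chr10:128567523-128589652, minus strand) moved the other way. Its FPKM was 14, 13.1 and 14.4 with mifepristone plus NaCl, 11.9, 13.1 and 12.4 with vehicle plus NaCl, 26.3, 25.9 and 21.5 with mifepristone, and 16, 18.6 and 19.1 with vehicle. The mifepristone group without NaCl was the highest and did not overlap any other group. Without NaCl, Erbb3 was 1.36-fold higher with mifepristone (log2 0.44, SE 0.084, limma adjusted p = 0.000883); with NaCl the log2 difference was 0.15 (95% interval -0.04 to 0.33, limma adjusted p = 0.158). NaCl lowered Erbb3 in both backgrounds, by 0.80 on the log2 scale in mifepristone cells (1.74-fold, limma adjusted p = 1e-05) and by 0.51 in vehicle cells (1.42-fold, limma adjusted p = 0.0004). The interaction of -0.29 (SE 0.12) did not pass the threshold (limma adjusted p = 0.0826), but did without mifepristone library C (-0.386, limma adjusted p = 0.00745).

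Erbb2 (chr11:98412470-98437716, plus strand), the gene of the partner receptor, had FPKM of 15.3, 13.6 and 15.1 with mifepristone plus NaCl, 17.6, 19.1 and 18.1 with vehicle plus NaCl, 23, 24.1 and 21.5 with mifepristone, and 20.9, 22.5 and 22.9 with vehicle. Every NaCl library lay below every library without NaCl, and within NaCl the mifepristone libraries were the lower ones. With NaCl, mifepristone cells had 1.24-fold less Erbb2 than vehicle cells (log2 -0.31, SE 0.058, limma adjusted p = 0.000846). Without NaCl the difference was 0.05 (95% interval -0.08 to 0.18, limma adjusted p = 0.487). NaCl lowered Erbb2 by 0.62 on the log2 scale in mifepristone cells (limma adjusted p = 4.09e-06) and by 0.27 in vehicle cells (limma adjusted p = 0.00264), and the interaction was -0.36 (SE 0.083, limma adjusted p = 0.00736).

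**Figure D1:**
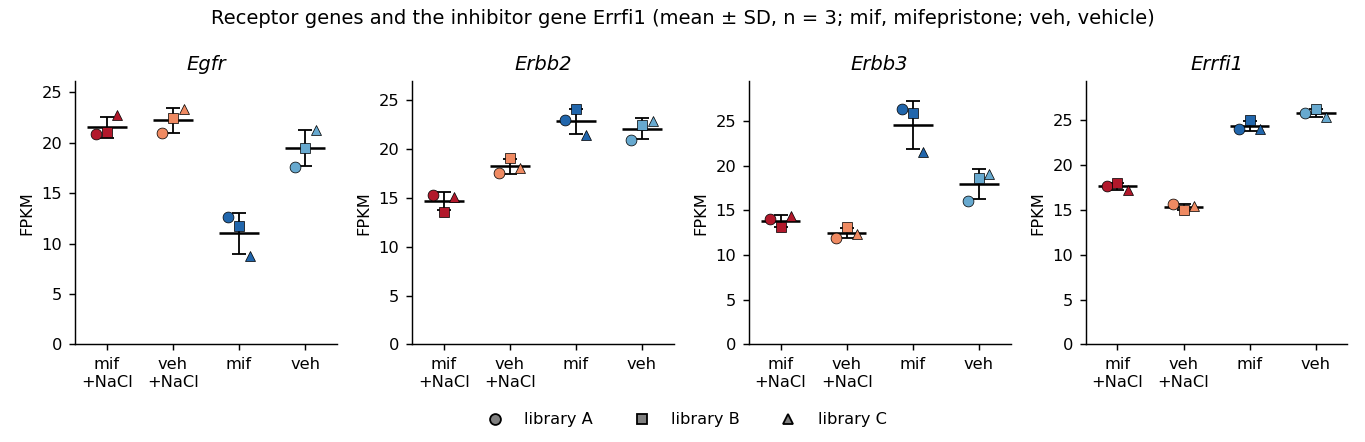
FPKM of Egfr, Erbb2, Erbb3 and Errfi1 (y axes, from 0) in each library of the 4 groups; symbols give the library letter, horizontal lines the mean and bars the SD over 3 libraries. The mifepristone libraries without NaCl hold the lowest Egfr (8.74 to 12.6 FPKM) and the highest Erbb3 (21.5 to 26.3 FPKM), and both NaCl groups are low for Erbb2, Erbb3 and Errfi1.

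The makeup of the receptor messages in FPKM differed between groups. FPKM is per length, so setting different genes side by side rests on the length used for each, which is not given. Differences between libraries that followed gene length, given below, also touch these ratios. In mifepristone C, Egfr deviated from its group mean by -0.30 and Erbb3 by -0.18 on the log2 scale. Summed over the 3 receptor genes, FPKM was 50 ± 2.28 with mifepristone plus NaCl, 52.9 ± 2.17 with vehicle plus NaCl, 58.4 ± 5.79 with mifepristone and 59.4 ± 4.45 with vehicle (SD, n = 3 each). Egfr made up 43% of that sum with mifepristone plus NaCl, 42% with vehicle plus NaCl, 18.8% with mifepristone and 32.7% with vehicle. The ratio of Egfr to Erbb3 FPKM was 1.49 to 1.6 in the mifepristone plus NaCl libraries, 1.71 to 1.89 with vehicle plus NaCl, 0.408 to 0.48 with mifepristone and 1.05 to 1.11 with vehicle. The 4 groups did not overlap in this ratio, and only the mifepristone libraries without NaCl had less Egfr than Erbb3.

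Errfi1 (chr4:150853919-150868892, plus strand) encodes a feedback inhibitor that is itself induced by receptor signalling in many cells. Its FPKM was 17.7, 18 and 17.2 with mifepristone plus NaCl, 15.6, 15 and 15.4 with vehicle plus NaCl, 24, 25 and 24 with mifepristone, and 25.8, 26.2 and 25.3 with vehicle. The 4 groups did not overlap, and the spread within each was small. NaCl lowered Errfi1 1.37-fold in mifepristone cells (log2 -0.46, SE 0.032, limma adjusted p = 3.67e-07) and 1.66-fold in vehicle cells (log2 -0.73, SE 0.032, limma adjusted p = 1.05e-08). With NaCl it was 1.14-fold higher with mifepristone (log2 0.19, limma adjusted p = 0.000314), whereas without NaCl the log2 difference was -0.08 (95% interval -0.15 to -0.01) and missed the threshold (limma adjusted p = 0.052), which it passed without mifepristone library B (-0.099, limma adjusted p = 0.037) and with quantile normalization (-0.115, limma adjusted p = 0.0095). The interaction was 0.27 (SE 0.045, limma adjusted p = 0.00113).

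Hbegf and Tgfa were the ligand genes with the highest levels. Hbegf (chr18:36504927-36515805, minus strand) encodes heparin-binding EGF-like growth factor, a ligand of EGFR and ERBB4. Its FPKM was 20.2, 21 and 21 with mifepristone plus NaCl, 20.9, 19.1 and 19.7 with vehicle plus NaCl, 16.1, 16.9 and 17.1 with mifepristone, and 21.2, 19.6 and 19.8 with vehicle. As for Egfr, the 3 mifepristone libraries without NaCl were the lowest of the 12 and the other groups overlapped. Without NaCl Hbegf was 1.2-fold lower with mifepristone (log2 -0.27, SE 0.044, limma adjusted p = 0.00027), and with NaCl the difference was 0.06 (95% interval -0.04 to 0.16, limma adjusted p = 0.263). NaCl raised it 1.24-fold in mifepristone cells (log2 0.31, limma adjusted p = 0.000102), against a log2 difference of -0.02 in vehicle cells (95% interval -0.12 to 0.08, limma adjusted p = 0.713). The interaction was 0.33 (SE 0.062, limma adjusted p = 0.00228).

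Tgfa (chr6:86195223-86275719, plus strand) encodes transforming growth factor alpha, a ligand of EGFR alone among the receptors. Its FPKM was 3.16, 2.86 and 3.14 with mifepristone plus NaCl, 3.45, 3.57 and 3.33 with vehicle plus NaCl, 6.31, 6.7 and 5.74 with mifepristone, and 6.4, 6.77 and 6.69 with vehicle. The NaCl libraries lay apart from the others, below 4 FPKM. NaCl lowered Tgfa 1.9-fold in mifepristone cells (log2 -0.92, SE 0.057, limma adjusted p = 1.19e-07) and 1.8-fold in vehicle cells (log2 -0.85, SE 0.057, limma adjusted p = 3.2e-07), and the interaction was -0.07 (95% interval -0.25 to 0.10, limma adjusted p = 0.506). With NaCl, mifepristone cells were 1.11-fold lower (log2 -0.15, limma adjusted p = 0.0363), a call that was lost under other settings (adjusted p = 0.0923 with voom on the recovered reads). It was also lost without mifepristone plus NaCl B (-0.114, limma adjusted p = 0.139), vehicle plus NaCl A (-0.154, limma adjusted p = 0.0774) or vehicle plus NaCl B (-0.132, limma adjusted p = 0.115). Without NaCl the difference was -0.08 (95% interval -0.20 to 0.05, limma adjusted p = 0.249).

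The 3 other detected ligand genes were below 1 FPKM in every library. Egf (chr3:129677565-129755316, minus strand), the gene of the founding ligand, had 308, 267 and 332 reads with mifepristone plus NaCl, 223, 214 and 217 with vehicle plus NaCl, 148, 152 and 113 with mifepristone, and 113, 134 and 137 with vehicle. All NaCl libraries exceeded all libraries without NaCl, and with NaCl the mifepristone libraries were higher. NaCl raised Egf 2.3-fold in mifepristone cells (log2 1.20, SE 0.11, voom adjusted p = 9.3e-07) and 1.71-fold in vehicle cells (log2 0.77, SE 0.12, voom adjusted p = 0.000131). With NaCl mifepristone cells had 1.38-fold more (log2 0.46, SE 0.1, voom adjusted p = 0.0014), and without NaCl the difference was 0.03 (95% interval -0.25 to 0.32, voom adjusted p = 0.853). The interaction of 0.43 missed the threshold (voom adjusted p = 0.0697), passed it without mifepristone A (0.519, voom adjusted p = 0.0427) and was 0.259 without mifepristone C.

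Btc encodes betacellulin, a ligand of EGFR and ERBB4 (chr5:91357261-91402994, minus strand). It had 117, 91 and 99 reads with mifepristone plus NaCl, 92, 101 and 104 with vehicle plus NaCl, 132, 132 and 118 with mifepristone, and 180, 165 and 191 with vehicle. The vehicle group was the highest without overlap, and the 2 NaCl groups overlapped. Without NaCl Btc was 1.46-fold lower with mifepristone (log2 -0.55, SE 0.11, voom adjusted p = 0.00066), and with NaCl the difference was 0.04 (95% interval -0.24 to 0.31, voom adjusted p = 0.832). NaCl lowered Btc 1.8-fold in vehicle cells (log2 -0.85, SE 0.11, voom adjusted p = 3.55e-05). In mifepristone cells the difference was -0.26 and missed the threshold (voom adjusted p = 0.0767), which it passed without mifepristone plus NaCl A (-0.366, voom adjusted p = 0.0297) or mifepristone C (-0.353, voom adjusted p = 0.0249). The interaction was 0.58 (SE 0.16, voom adjusted p = 0.0193), a call that was lost without mifepristone plus NaCl library A (0.478, adjusted p = 0.0576).

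Areg encodes amphiregulin and lies with Ereg and Btc within 328 kb of chromosome 5 (Areg at chr5:91139599-91148432 and Ereg at chr5:91074622-91093646, both plus strand). Areg had 22, 27 and 25 reads with mifepristone plus NaCl, 25, 16 and 16 with vehicle plus NaCl, 25, 23 and 27 with mifepristone, and 10, 14 and 12 with vehicle. The vehicle libraries without NaCl were the lowest and the other groups overlapped. Without NaCl Areg was 1.97-fold higher with mifepristone (log2 0.98, SE 0.25, voom adjusted p = 0.00463), the opposite direction to Btc and Hbegf. With NaCl the difference was 0.39 (95% interval -0.11 to 0.88, voom adjusted p = 0.167). The effect of NaCl was 0.03 in mifepristone cells (95% interval -0.44 to 0.49, voom adjusted p = 0.927) and 0.62 in vehicle cells (95% interval 0.05 to 1.19, voom adjusted p = 0.0638). The difference in vehicle cells passed without vehicle plus NaCl C (0.754, voom adjusted p = 0.0473) and was 0.400 without vehicle plus NaCl A. The interaction of -0.59 was not called (voom adjusted p = 0.218) and was -0.373 without vehicle plus NaCl A. Ereg, the epiregulin gene, had 1, 3 and 0 reads in the mifepristone plus NaCl libraries and 0, 0 and 2 with vehicle plus NaCl. The 6 others had none. No library exceeded 3 reads, so no comparison of Ereg is given. It entered only the setting without a filter, where none of its comparisons was called.

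**Figure D2:**
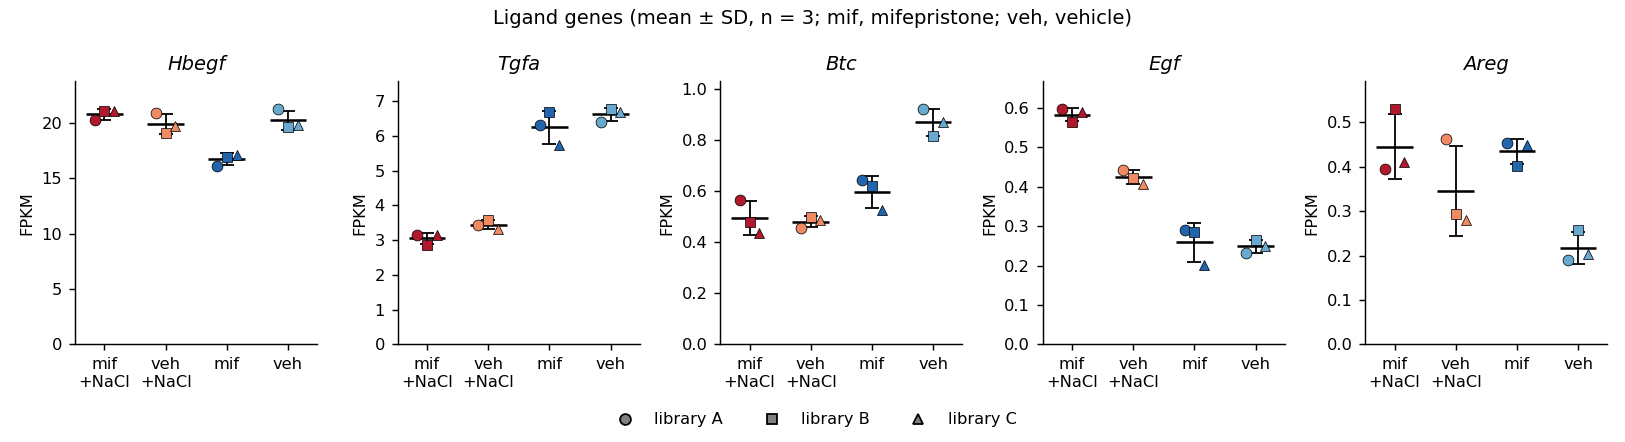
FPKM of the 5 ligand genes with more than 3 reads in a library (y axes, from 0, each gene with its own scale) in each library of the 4 groups; symbols give the library letter, horizontal lines the mean and bars the SD over 3 libraries. Hbegf is lowest with mifepristone without NaCl, Tgfa is low in both NaCl groups, Btc is highest with vehicle, Egf is highest with mifepristone plus NaCl and Areg is lowest with vehicle.

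Summed over the 6 ligand genes, FPKM was 25.4 ± 0.334 with mifepristone plus NaCl, 24.6 ± 0.96 with vehicle plus NaCl, 24.2 ± 0.597 with mifepristone and 28.2 ± 0.66 with vehicle (SD, n = 3 each). Hbegf made up 81.9% of the sum with mifepristone plus NaCl, 80.9% with vehicle plus NaCl, 68.9% with mifepristone and 71.7% with vehicle. Tgfa made up 12%, 14%, 25.8% and 23.5% in the same groups. In FPKM the detected ligand message was thus mostly Hbegf in all 4 groups, and the Tgfa share was lower in the NaCl groups. The Hbegf share depends on the gene length behind its FPKM, which is not given. Its reads and FPKM imply a length below its union exon length of 4834 bases. Hbegf and Tgfa reads were 6798 and 2740 with mifepristone plus NaCl and 6467 and 3063 with vehicle plus NaCl. They were 5637 and 5763 with mifepristone and 6548 and 5878 with vehicle.

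Across all 14044 genes a change was the rule rather than the exception, so the members' counts are read against that background. With mifepristone in NaCl, 3 of the 6 tested members were called (Errfi1 higher, Tgfa and Erbb2 lower), where 58.7% of all genes were called in either direction, 26.8% higher and 31.9% lower. With mifepristone without NaCl, 3 were called (Erbb3 higher, Egfr and Hbegf lower), with 59.7% of all genes called, 28.3% higher and 31.5% lower. With NaCl in mifepristone cells all 6 were called (Egfr and Hbegf higher, the 4 others lower), with 58.7% of all genes called, 24.5% higher and 34.2% lower. In vehicle cells 4 were called, all lower (Tgfa, Errfi1, Erbb3 and Erbb2), with 56.7% of all genes called, 25.2% higher and 31.5% lower. The interaction was called for 4 of 6 (Egfr, Hbegf and Errfi1 positive, Erbb2 negative), with 31.1% of all genes called, 13.6% positive and 17.5% negative; without mifepristone C the number of genes called was 6784, against 4374 with all libraries. With both mifepristone comparisons the members' share was near the background. The median log2 change of the 6 members with NaCl was -0.54 in mifepristone cells and -0.39 in vehicle cells, beside medians over all genes of -0.06 and -0.02. The comparisons with mifepristone gave member medians of 0.01 with NaCl and -0.08 without, beside -0.03 and -0.01 over all genes. In the voom fit over 18349 genes, with Egf, Btc and Areg among 9 members tested, 4 were called with mifepristone in NaCl, 5 without NaCl, 7 with NaCl in mifepristone cells, 6 in vehicle cells and 5 for the interaction. The same fit called 56.2%, 55.5%, 56.2%, 52.3% and 26.5% of all genes in those comparisons.

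**Figure D3:**
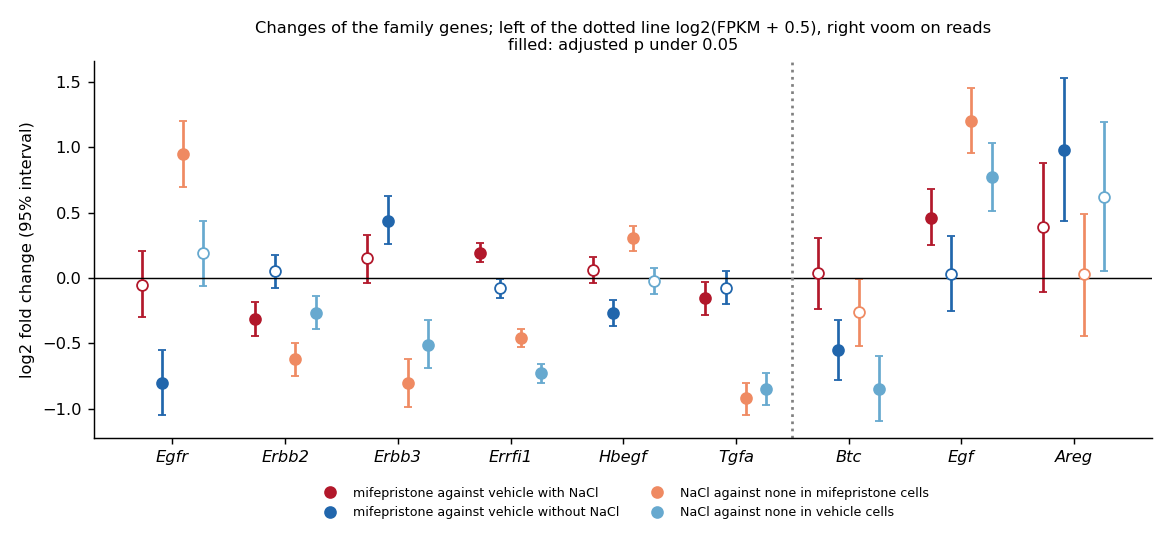
Log2 fold change (y axis) with its 95% interval for 9 members in the 4 comparisons; filled points have an adjusted p under 0.05. Left of the dotted line values come from limma on log2(FPKM + 0.5), right of it from voom on recovered reads; Egfr and Hbegf are called below 0 with mifepristone without NaCl and above 0 with NaCl in mifepristone cells, and Tgfa, Errfi1, Erbb3 and Erbb2 are below 0 with NaCl in both backgrounds.

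In size, the Egfr change with mifepristone without NaCl exceeded that of 90.2% of tested genes, and its interaction exceeded that of 95.2%. The Tgfa change with NaCl exceeded that of 93.7% of genes in mifepristone cells and 94.2% in vehicle cells. The Erbb3 change with NaCl in mifepristone cells exceeded 91.7%, and the Errfi1 change in vehicle cells also exceeded 91.7%. The Hbegf change with mifepristone without NaCl was larger than that of 55.6% of genes.

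The order of the group means differed between members. For Egfr the 3 upper groups, vehicle plus NaCl (22.2 FPKM), mifepristone plus NaCl (21.5) and vehicle (19.4), did not differ from their neighbours, and mifepristone (11 FPKM) stood below them. For Erbb3 mifepristone (24.5 FPKM) was above vehicle (17.9), vehicle above mifepristone plus NaCl (13.8, limma adjusted p = 0.00249), and the last was not shown to differ from vehicle plus NaCl (12.4). For Errfi1, vehicle (25.8 FPKM) and mifepristone (24.4) did not differ at the threshold, mifepristone stood above mifepristone plus NaCl (17.6) and that above vehicle plus NaCl (15.3). For Areg no neighbouring pair of groups differed.

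Libraries of the same group differed in a way that followed gene length, and Egfr and Erbb3 moved with it in the libraries with the strongest trend. The Spearman correlation across the tested genes between a library's log2 deviation from its group mean and the gene's exon length was -0.51 in mifepristone library C, -0.44 in vehicle library A and 0.47 in mifepristone library A; it is a correlation across genes, which are not independent replicates. The Egfr deviations in those libraries were -0.30, -0.14 and 0.20, and the Erbb3 deviations -0.18, -0.15 and 0.10. In vehicle plus NaCl library B, with a correlation of 0.29, they were 0.01 and 0.07. In mifepristone C the other tested members deviated by -0.11 (Tgfa), -0.08 (Erbb2), 0.04 (Hbegf) and -0.02 (Errfi1). Union exon length was 11326 bases for Egfr and 6016 bases for Erbb3. Egf, at 11275 bases, had 0.202 FPKM in mifepristone C, against 0.289 and 0.285 in mifepristone A and B. Without mifepristone C and vehicle A the log2 change with mifepristone without NaCl was -0.721 for Egfr (limma adjusted p = 6.37e-06) and 0.457 for Erbb3 (limma adjusted p = 3.34e-05), and the Egfr interaction was 0.675 (limma adjusted p = 0.000204). Without mifepristone C alone the Egfr change was -0.652, its change with NaCl in mifepristone cells 0.797 and its interaction 0.607. Each was the smallest in size of the fits with 1 library left out. Without both mifepristone C and vehicle A the Erbb3 interaction of -0.311 passed the threshold (limma adjusted p = 0.00442). The Erbb3 change with mifepristone in NaCl also passed (0.146, limma adjusted p = 0.0112). Neither library left out is in that comparison, so its difference was unchanged. Only the estimate of spread shared by all groups differed.

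**Figure D4:**
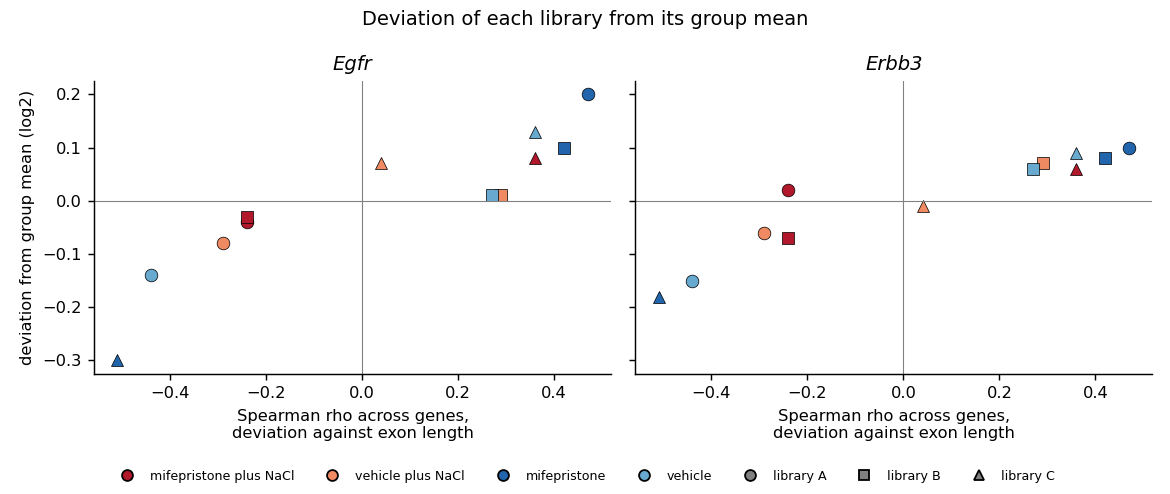
Log2 deviation of Egfr (left) and Erbb3 (right) from the group mean (y axis) against the Spearman correlation, across tested genes, between a library's deviations and exon length (x axis); each point is 1 of 12 libraries, coloured by group, with symbols for the library letter. Mifepristone library C has the lowest point for both genes, at -0.30 for Egfr and -0.18 for Erbb3 on the y axis and -0.51 on the x axis.

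The genes whose log2 levels over the 12 libraries were most like each member's are given as a description. For Egfr they were Rab11fip2 (Pearson r 0.978), with mean FPKM of 7.46 with mifepristone plus NaCl, 7.66 with vehicle plus NaCl, 5.81 with mifepristone and 7.23 with vehicle, and Dtl (0.974). For Erbb3 they were Zfp266 (0.991) and Pitpnm3 (0.990), for Erbb2 Abl1 (0.990) and Brd3 (0.988), and for Errfi1 Tnnt2 and Cd81 (0.989 each). For Tgfa they were Klhl42 and Gramd4 (0.993 each), and for Hbegf Pla2g15 (0.968) and Poll (0.967). At a Pearson r of 0.95 or more, 186 genes were like Tgfa, 11 like Egfr and 3 like Hbegf. These points share library depth and the length trend.

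Other genes of the pathway were taken from 6 lists, and counts cover every tested gene of a list; the genes named from each list are among those with its smallest adjusted p, so they were picked for their change. The counts are to be read against all 14044 genes, of which 26.8% were called higher and 31.9% lower with mifepristone in NaCl, 28.3% and 31.5% without NaCl, 24.5% and 34.2% with NaCl in mifepristone cells, 25.2% and 31.5% with NaCl in vehicle cells, and 17.5% negative for the interaction. Among 6 other ligand and receptor genes (Epgn, Nrg1 to Nrg4 and Erbb4), only Nrg1, which encodes the neuregulin 1 ligand of ERBB3 and ERBB4, passed the filter. Nrg1 averaged 0.702 ± 0.00913 FPKM with mifepristone plus NaCl, 1.84 ± 0.1 with vehicle plus NaCl, 0.782 ± 0.127 with mifepristone and 1.99 ± 0.131 with vehicle (SD, n = 3 each). It reached FPKM 1 only in the vehicle groups, with at most 0.712 FPKM with mifepristone plus NaCl and 0.875 with mifepristone. The test of a fall with mifepristone therefore used a gene that the filter admitted through the groups where it was high. Nrg1 fell with mifepristone by 0.96 on the log2 scale both with and without NaCl (SE 0.076, limma adjusted p = 8.29e-07 and 8.46e-07). The interaction was -0.00 (SE 0.11, limma adjusted p = 0.996), and NaCl changed it by -0.09 in both backgrounds, which was not called.

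Genes for the cutting and transport of ligands (13 listed, 9 tested) gave 1 higher and 7 lower with mifepristone in NaCl, 4 higher and 3 lower without NaCl, 5 higher and 4 lower with NaCl in mifepristone cells and 5 higher and 1 lower in vehicle cells. Adam17, the main protease that sheds TGF-alpha, amphiregulin and HB-EGF, fell 1.42-fold with mifepristone in NaCl (log2 -0.50, SE 0.041, limma adjusted p = 9.89e-07) and 1.39-fold without NaCl (log2 -0.48, limma adjusted p = 1.58e-06). Timp3, an inhibitor of that protease, averaged 35.1 FPKM with mifepristone plus NaCl, 14.5 with vehicle plus NaCl, 18.3 with mifepristone and 3.08 with vehicle. It rose 5.2-fold with mifepristone without NaCl (log2 2.38, SE 0.11, limma adjusted p = 8.02e-09). In vehicle cells it rose 4.18-fold with NaCl (log2 2.06, limma adjusted p = 3.98e-08). Rhbdf1 and Rhbdf2 encode iRhoms, which carry ADAM17 to the cell surface, and with NaCl in mifepristone cells Rhbdf1 fell by 0.78 and Rhbdf2 rose by 0.55 on the log2 scale.

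Feedback inhibitors (15 listed, 13 tested, Errfi1 not among them) gave 5 higher and 6 lower with mifepristone in NaCl, 4 and 4 without NaCl, 2 higher and 10 lower with NaCl in mifepristone cells and 2 higher and 7 lower in vehicle cells. Their median log2 change with NaCl was -0.56 in mifepristone cells and -0.23 in vehicle cells. Dusp6, the phosphatase of ERK, was an exception, with 125 FPKM with mifepristone plus NaCl, 88.6 with vehicle plus NaCl, 9.31 with mifepristone and 15.4 with vehicle. NaCl raised it 12.8-fold in mifepristone cells (log2 3.68, SE 0.043, limma adjusted p = 2.46e-13) and 5.62-fold in vehicle cells (log2 2.49, limma adjusted p = 7.73e-12). Spry1, an inhibitor of receptor tyrosine kinase signalling, averaged 4.82 FPKM with mifepristone plus NaCl, 6.79 with vehicle plus NaCl, 15.6 with mifepristone and 28 with vehicle, and fell with NaCl by 1.60 on the log2 scale in mifepristone cells and 1.97 in vehicle cells. Lrig1, whose product lowers the receptor proteins, fell with mifepristone by 0.96 with NaCl and 0.63 without.

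Adaptors and Ras-MAPK genes (18 tested) gave 4 higher and 10 lower with mifepristone in NaCl, 9 higher and 3 lower without NaCl, 1 higher and 11 lower with NaCl in mifepristone cells and 3 higher and 6 lower in vehicle cells. Sos2, an exchange factor for Ras, rose 2.05-fold with mifepristone in NaCl (log2 1.03, limma adjusted p = 2.65e-08) and 2.08-fold without NaCl (log2 1.06, limma adjusted p = 2.39e-08). PI3K-AKT genes (9 tested) gave 1 higher and 6 lower with mifepristone in NaCl and 6 higher and 3 lower without NaCl. With NaCl they gave 1 higher and 8 lower in mifepristone cells and 3 and 3 in vehicle cells. The interaction was called negative for 6 of 9 and positive for 0, beside 17.5% and 13.6% of all genes. Other lists also had negative calls. They were 5 of 9 for ligand cutting and transport, 6 of 18 for adaptors and Ras-MAPK, 4 of 13 for feedback inhibitors and 1 of 10 for ERK-induced genes. Positive calls in those lists were 1, 0, 3 and 4. Pik3r1, a regulatory subunit of PI3K, averaged 4.87 FPKM with mifepristone plus NaCl, 4.81 with vehicle plus NaCl, 13.5 with mifepristone and 5.87 with vehicle, so like Erbb3 it was highest with mifepristone without NaCl.

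ERK-induced genes (14 listed, 10 tested) gave 3 higher and 3 lower with mifepristone in NaCl, 2 higher and 6 lower without NaCl, 4 higher and 5 lower with NaCl in mifepristone cells and 2 higher and 7 lower in vehicle cells. These counts include Egr2, which reached FPKM 1 only with mifepristone without NaCl (1.24 to 1.46, at most 0.523 in other groups). The filter thus admitted Egr2 through the group where it was high. It was called higher with mifepristone without NaCl, lower with NaCl in both backgrounds and negative for the interaction. Egr1, an immediate early transcription factor, averaged 5.38 FPKM with mifepristone plus NaCl, 5.75 with vehicle plus NaCl, 14.9 with mifepristone and 24.5 with vehicle. NaCl lowered it 2.63-fold in mifepristone cells (limma adjusted p = 3.72e-07) and 4.02-fold in vehicle cells (limma adjusted p = 2.63e-08). Without NaCl it was 1.63-fold lower with mifepristone (log2 -0.70, limma adjusted p = 8.73e-05), while with NaCl the difference was -0.09 (limma adjusted p = 0.466). Ccnd1, the cyclin D1 gene, averaged 0.3 FPKM with mifepristone plus NaCl, 0.186 with vehicle plus NaCl, 1.89 with mifepristone and 1.75 with vehicle. It reached FPKM 1 only in the groups without NaCl, with at most 0.331 FPKM with mifepristone plus NaCl and 0.216 with vehicle plus NaCl. The filter thus admitted it through the groups where it was high. On the log2(FPKM + 0.5) scale, which understates the change of so low a gene, Ccnd1 fell 2.98-fold with NaCl in mifepristone cells (limma adjusted p = 3.61e-08) and 3.28-fold in vehicle cells (limma adjusted p = 2.45e-08). Plaur, the urokinase receptor gene, rose 2.03-fold with NaCl in mifepristone cells (limma adjusted p = 7.15e-08) and 1.97-fold in vehicle cells (limma adjusted p = 1.4e-07).

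**Figure D5:**
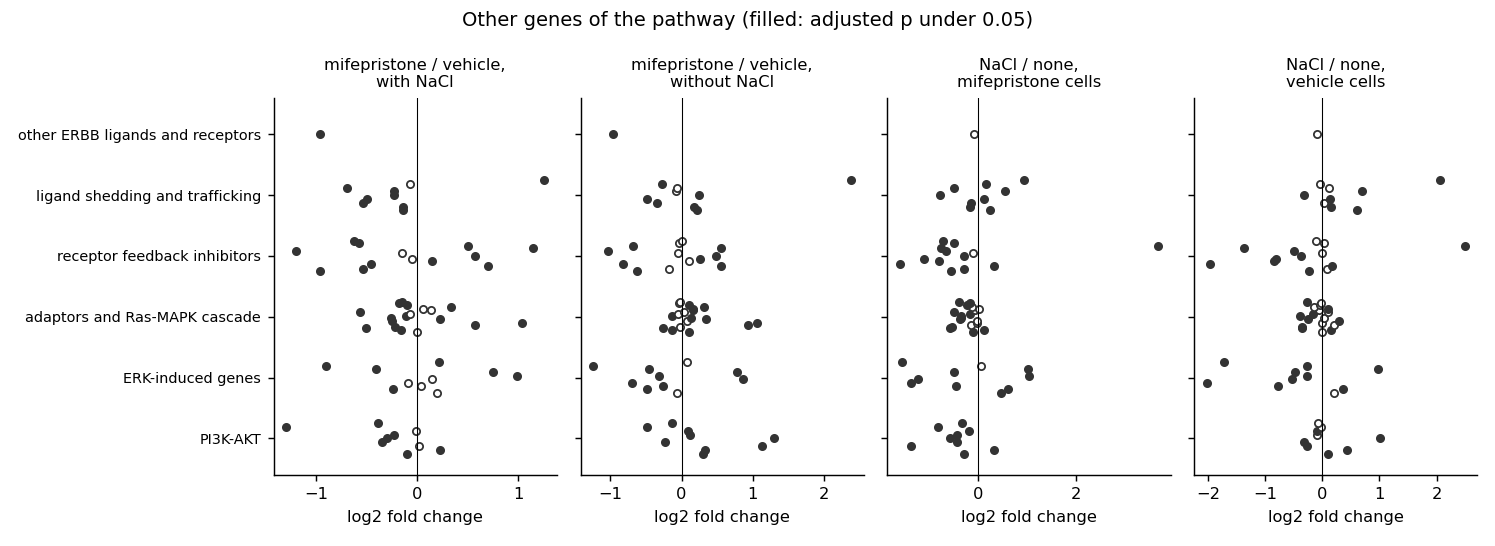
Log2 fold change (x axes) of every tested gene of the 6 pathway lists (rows) in the 4 comparisons; filled points have an adjusted p under 0.05. The point farthest to the right in both NaCl panels is Dusp6, at 3.68 in mifepristone cells and 2.49 in vehicle cells, and the one farthest to the right with mifepristone without NaCl is Timp3, at 2.38.

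The authors' deposited tables give an adjusted p of 1 for the mutant against vehicle for each of the 9 members they list a value for, Egfr included (log2 fold change -0.8064). In the authors' deposited table for that comparison the smallest log2 change with an adjusted p under 1 was 1.07 in size, so their test may ask for a minimum change, and their calls are not set against those given here. For NaCl against none, the authors' deposited table gives adjusted p of 6.08e-16 for Egfr, 1.5e-47 for Tgfa and 1.99e-19 for Erbb3 in mutant cells, and 0.178 for Egfr in vehicle cells. Their deposited interaction column has an adjusted p of 1 for the same 9 members, and the smallest interaction with one under 1 was 1.21 in size.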

How the data were processed

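Poly(A) RNA of IMCD3 cells was sequenced in 12 libraries, 3 in each of 4 groups taken from the labels. Per the submitters' processing notes, the tools were DESeq2 1.12.3, STAR 2.4.2a, Trimmomatic 0.32 and SAMtools 1.0, with the genome GRCm38 (mm10). The counting program, annotation and strand setting remain not given in the sources used here. The authors deposited FPKM per gene and library, in which each column named for the mutant was matched to the mifepristone library of the same NaCl state and letter, with knowledge of the study. Their comparison tables hold log2 fold changes, adjusted p-values and a mean normalized count per gene (used here as a deposited signal value), per the file headers. No value column was without a sample.

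Whole reads were recovered from FPKM with the authors' mean normalized count and the smallest step of each library. Of the values, 100.0% were whole within 0.05 reads. Members were tested with limma 3.58.1 under R 4.3.3, trended and robust, on log2(FPKM + 0.5), keeping genes that reached FPKM 1 in 3 or more libraries, with 4 group means, 8 residual degrees of freedom and Benjamini-Hochberg adjustment. Voom on reads over genes with at least 10 reads in at least 3 libraries, chosen after seeing the data, called 10189 genes with mifepristone without NaCl. Intervals are 95% intervals of the fits; the bound of 3 reads covers counting error only. Coordinates are GENCODE M21 (GRCm38). Both fits were also run on simulated counts in which few genes changed and no gene-length trend was built in. That run cannot show how the fits behave with such a trend or with so many changes.

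All 10 members were named; of each pathway list, up to 5 genes were eligible by smallest adjusted p over the 4 comparisons. The members and lists were chosen with earlier results of these data known. The other settings tried were 2 pseudocounts, no filter, median-ratio and quantile scaling, voom, a replicate block and leaving out libraries. The level of the mutated factor is not reported here.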

Additional observations from a re-analysis of the deposited data

Results flagged for a closer look

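The interaction test called 4 of the 6 members of the FPKM fit, in which 31.1% of all genes were called, and the voom fit called these and Btc, 5 of 9 members, beside 26.5% of all genes. The interaction was 0.76 for Egfr, which was called lower with mifepristone without NaCl and not with it, and 0.33 for Hbegf, which showed the same pattern. It was -0.36 for Erbb2, which was called lower with mifepristone with NaCl, and 0.27 for Errfi1, which was called higher with mifepristone with NaCl. In the voom fit on reads it was 0.58 for Btc, which was lower with mifepristone without NaCl; that call was lost without mifepristone plus NaCl A (0.478, adjusted p = 0.0576). The part of the gene-length trend in the Egfr interaction was not tested. That interaction was 0.675 without mifepristone C and vehicle A, and 0.607 without mifepristone C alone.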

How the results depend on the processing

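Of 855 repeat values for members outside the voom fit of low counts, 837 kept their direction and side of the threshold, 7 lost the call, 6 gained one and 5 changed sign. The 855 include fits without a library that is in neither group compared. There the fold change could not move and its direction was fixed in advance. Only the estimate of spread shared by all groups could change, so the count overstates how firm the values are. Without a filter on low values 5 of 10 members and 9433 genes were called with mifepristone without NaCl, against 3 of 6 members and 8391 genes with it; the added calls were Areg and Btc, which the filter leaves out. Leaving out 1 library gave 7621 to 9182 genes called with mifepristone without NaCl, 7321 to 9235 with NaCl, 7290 to 8699 with NaCl in mifepristone cells, 6939 to 8975 in vehicle cells and 3512 to 6784 for the interaction, where the highest count came without mifepristone C (4374 with all libraries); the cause was not tested. Members called ranged over 3 to 4, 2 to 3, 6 to 6, 4 to 5 and 4 to 5 in the same order. The highest gene counts for mifepristone in NaCl and for NaCl in vehicle cells came without mifepristone C, which is in neither comparison.

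Hbegf with NaCl in vehicle cells was 0.007 with median-ratio scaling, 0.008 with voom and 0.013 without vehicle A and mifepristone C, and -0.055 to 0.013 with 1 library left out. Ccnd1 with mifepristone in NaCl was -0.058 with quantile scaling. In voom, with 1 library left out, Egf with mifepristone without NaCl ranged from -0.054 to 0.206 and was below 0 also at -0.048 and -0.021, Btc with mifepristone in NaCl ranged from -0.067 to 0.125 and was -0.002 without vehicle plus NaCl A, and Areg with NaCl in mifepristone cells was -0.093 and -0.029 without mifepristone plus NaCl B and mifepristone B.

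Same-lettered libraries had correlations of deviations from -0.5 to 0.288, so the letters were not taken as pairs. The fit with the replicate block gave Tgfa with mifepristone in NaCl -0.154 at an adjusted p of 0.0572, a lost call. That call was also lost with median-ratio scaling, no filter and voom. Depth limits Areg and Ereg most.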
